A study of Mus musculus with 12 samples.

Results

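The 10 genes described here are Lgr receptors, Wnt receptors and feedback brakes of the Wnt pathway in mouse intestinal stem cells (ISCs): Lgr4, Lgr5, Rnf43, Znrf3, Axin2, Nkd1, Notum, Fzd7, Lrp5 and Lrp6. They were chosen by symbol, from their known roles and with earlier results of these data known. All 10 were found once each among the 47729 genes of the count table. RNA was sequenced from small-intestinal ISCs. All 4 groups carried the knock-in Lgr5-EGFP-IRES-CreERT2, which makes EGFP and an inducible Cre from the Lgr5 locus. Mice of both sexes, 8 to 10 weeks old, were given a single exposure on 1 day. The Ctrl group was kept without food and water for as long as the restrained mice, the Stress group was restrained for 3 h, the Vehicle group was injected with a cyclodextrin solution, and the CORT group was injected with 5 mg/kg corticosterone, the main glucocorticoid of rodents, in that solution. Each group had 3 libraries, and the joined numbers of Stress 1+2 and Stress 4+5+6 are read as pooled mice. Separate mice are implied by the numbers but are not described per library, so the p-values below measure the spread between these libraries.

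The sort kept EpCAM+, CD24-, CD31-, CD45-, TER119- cells with high EGFP. The gate therefore used the activity of the Lgr5 locus itself, and the knock-in disrupts the allele that carries the reporter. Lgr5 RNA in these libraries is thus the level within cells already selected for Lgr5 promoter activity. In RNA from sorted pools, fewer cells of a type and less RNA per cell cannot be told apart.

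Wnt ligands bind a Frizzled receptor together with Lrp5 or Lrp6, and this stabilises β-catenin, which drives the genes that keep crypt stem cells dividing. Rnf43 and Znrf3 are membrane ubiquitin ligases that remove Frizzled receptors from the cell surface. R-spondins, bound by Lgr4 and Lgr5, take these ligases away, so the Lgr receptors raise the sensitivity of a stem cell to Wnt. Axin2, Nkd1, Notum, Rnf43 and Znrf3 are also known Wnt target genes, so the pathway makes its own brakes.

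After corticosterone, 3 of the 9 members that could be tested fell relative to Vehicle: Fzd7 to 0.445-fold, Lgr4 to 0.490-fold and Lgr5 to 0.743-fold. Of the 14656 genes tested, 4.5% fell, and the Lgr5 call was lost whichever library was left out. After restraint, 1 of 9 fell relative to Ctrl, again Fzd7, to 0.639-fold, beside 0.59% of the 13722 genes tested. This call was lost without Ctrl 1, Ctrl 3 or Stress 1+2. DESeq2 called Lgr4 lower as well in Stress vs. Ctrl (adjusted p = 0.0278). The shares above are from edgeR, and the share of all genes that DESeq2 called is not given here. No member tested rose in either comparison. Among the brakes, none of Rnf43, Znrf3, Axin2 and Nkd1 passed edgeR's quasi-likelihood test in either comparison, while DESeq2 called Axin2 lower in Stress vs. Ctrl (adjusted p = 0.0168), and Notum was at or near 0 in every library.

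Depth differed between groups. Total counts were 15934907 to 17135770 in the Ctrl and Stress libraries, 16465961 to 31280267 in the Vehicle libraries, and 29426183 to 69533214 in the CORT libraries. The count table is an estimate from coverage in which 1 count stood for about 75 bases, so 1 read pair gave up to 4 counts. A floor of 3 read pairs was therefore set at 12 counts in a library. The ISC markers were high, with a summed level of 10680 to 13940 CPM (counts scaled to library size) over 6 genes that include Lgr5. Their median within a library was 434 to 607 CPM, so the sum rests mostly on the most abundant of them. Of the 6, 1 fell in Stress vs. Ctrl (Ascl2), beside 0.59% of all genes tested. In CORT vs. Vehicle 3 fell (Ascl2, Lgr5 and Smoc2), beside 4.5%. Blood markers summed to at most 1.73 CPM. Stromal and endothelial markers summed to at most 3.24 CPM, reached in the CORT group. Hbb-bs, Col3a1 and Cdh5 were at 0 in all 12 libraries.

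The promoter windows of the members that fell in the CORT group are shown because these genes moved together. They come from RefSeq (GRCm38.p6) and hold 250 bases before and 50 after a transcription start, and 5 of the 10 members had a window. Lgr5, Znrf3, Notum, Lrp5 and Lrp6 had none. The windows were searched on both strands for CTTTGAT and CTTTGTT, forms of the site bound by TCF/LEF factors, the DNA-binding partners of β-catenin, and for AGAACA, the half-site of the glucocorticoid receptor. Capitals mark matches, and no match overlapped another. Axin2 is added as the most abundant brake, which did not pass in CORT vs. Vehicle with edgeR or DESeq2.
Fzd7 chr1:59481897-59482196, plus strand: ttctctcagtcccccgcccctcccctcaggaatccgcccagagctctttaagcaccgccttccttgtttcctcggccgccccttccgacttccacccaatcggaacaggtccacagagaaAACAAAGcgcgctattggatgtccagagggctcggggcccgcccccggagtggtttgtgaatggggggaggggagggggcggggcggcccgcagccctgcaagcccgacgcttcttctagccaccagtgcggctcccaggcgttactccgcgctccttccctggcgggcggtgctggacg
Lgr4 chr2:109917397-109917696, plus strand: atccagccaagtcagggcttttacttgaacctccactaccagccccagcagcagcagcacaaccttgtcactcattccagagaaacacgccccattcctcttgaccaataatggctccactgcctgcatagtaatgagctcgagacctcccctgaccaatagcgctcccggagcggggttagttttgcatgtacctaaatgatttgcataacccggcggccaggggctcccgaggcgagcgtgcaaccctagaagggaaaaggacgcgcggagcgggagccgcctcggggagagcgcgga
Axin2 chr11:108920099-108920398, plus strand: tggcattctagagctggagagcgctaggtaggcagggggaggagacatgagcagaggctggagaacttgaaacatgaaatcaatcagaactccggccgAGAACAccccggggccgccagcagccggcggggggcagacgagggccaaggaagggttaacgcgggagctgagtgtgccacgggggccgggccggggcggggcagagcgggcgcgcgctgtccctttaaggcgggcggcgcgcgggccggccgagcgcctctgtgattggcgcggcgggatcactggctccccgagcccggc
The Fzd7 window held 1 match to CTTTGTT, read on the opposite strand from base 121, a motif found in 5.85% of the 32851 windows of this length. The Axin2 window held 1 match to AGAACA, from base 99, a motif found in 19.0% of all windows. The Lgr4 window held none of the 3 motifs, and CTTTGAT, found in 3.73% of all windows, was in none of the 6 windows of the members. The first Rnf43 window also held 1 AGAACA match, and the Nkd1 window held no match. The RefSeq start of Fzd7 lies 277 bases upstream of the start in the count table's annotation, while the starts of Lgr4 and Axin2 are the same in both. Those of Rnf43 lie 365 and 37175 bases downstream, and that of Nkd1 6289 bases downstream. The Rnf43 and Nkd1 windows thus do not cover the annotated starts.

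Fzd7 is a Frizzled receptor and spans chr1:59482424-59486955 of the mm10 genome as a single exon with 1 annotated transcript. In Ctrl libraries 1, 2 and 3 it measured 88.4, 83.3 and 102.6 CPM. In Stress 1+2, 3 and 4+5+6 it measured 57.1, 58.4 and 59.5 CPM. All 3 Stress libraries lay below all 3 Ctrl libraries and within a narrow range of each other. Stress 1+2 and Stress 4+5+6 are read as pools, so this range is not a spread between single mice. The fits treated pools like the other libraries. Fzd7 fell in Stress vs. Ctrl, with a log2 fold change of -0.65 (SE 0.098, 95% interval -0.87 to -0.43), with an adjusted p of 0.0121 in edgeR's quasi-likelihood test. Fzd7 was the 1 member of 9 that fell in this comparison, in which 0.59% of the 13722 genes tested fell. Its adjusted p was 0.0680 without Ctrl 1, 0.0599 without Ctrl 3 and 0.0664 without Stress 1+2, and 0.0618 with no filter on low counts, while the log2 fold change over the libraries left out in turn stayed between -0.71 and -0.55.

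In the injected groups, Fzd7 measured 85.8, 92.8 and 88.3 CPM in Vehicle 3, 5 and 6. It measured 30.8, 38.2 and 50.5 CPM in CORT 2, 4 and 5. Again no library overlapped, and the highest CORT library was below the lowest Stress library. This log2 fold change was -1.17 (SE 0.155, 95% interval -1.52 to -0.82) and had an adjusted p of 0.00249 in edgeR's quasi-likelihood test. The fall remained past the threshold under all 16 alternatives run, and leaving out each library in turn gave -1.37 to -1.01 on the log2 scale.

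Lgr4, a receptor for R-spondins, spans chr2:109917647-110014257. It measured 263, 245 and 297 CPM in Vehicle 3, 5 and 6. It measured 119, 123 and 154 CPM in CORT 2, 4 and 5. The CORT libraries were all below the Vehicle libraries and also below the 3 Ctrl libraries, at 238, 204 and 244 CPM. Against Vehicle, Lgr4 changed by -1.03 on the log2 scale (SE 0.116, 95% interval -1.29 to -0.77), with an adjusted p of 0.00110 in edgeR's quasi-likelihood test. Leaving out each library in turn gave -1.15 to -0.95, past the threshold each time.

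In the Stress libraries 1+2, 3 and 4+5+6, Lgr4 measured 183, 182 and 183 CPM. These values were nearly equal to each other and below every Ctrl library. Since 1+2 and 4+5+6 are read as pools, their closeness is not a spread between single mice. The log2 fold change was -0.32 (SE 0.089, 95% interval -0.52 to -0.12) and the adjusted p was 0.113 in edgeR's quasi-likelihood test, against 0.0278 in DESeq2. The call in this comparison thus depended on the tool.

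Lgr5, the stem cell receptor whose locus carries the reporter, spans chr10:115450311-115587780 on the minus strand. It measured 210, 194 and 194 CPM in Vehicle 3, 5 and 6. It measured 128, 159 and 159 CPM in CORT 2, 4 and 5. The groups did not overlap, but the gap between the lowest Vehicle and the highest CORT library was small beside that of Lgr4. The log2 fold change was -0.43 (SE 0.097, 95% interval -0.65 to -0.21), with an adjusted p of 0.0277 in edgeR's quasi-likelihood test. The call was lost whichever of the 6 libraries was left out, with adjusted p-values of 0.0530 to 0.0722 and log2 fold changes of -0.48 to -0.33.

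Lgr5 in the Ctrl libraries 1, 2 and 3 measured 224, 206 and 245 CPM. In Stress 1+2, 3 and 4+5+6 it measured 248, 173 and 216 CPM. The Stress libraries spread on both sides of the Ctrl range, with Stress 1+2 the highest and Stress 3 the lowest of the 6. Stress vs. Ctrl gave -0.084 on the log2 scale (95% interval -0.37 to 0.20, adjusted p = 0.823 in edgeR's quasi-likelihood test), and 0.044 without Stress 3. A gene on the opposite strand, A930009A15Rik, lies within the Lgr5 span but shares 0 exonic bases with it.

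**Figure D1:**
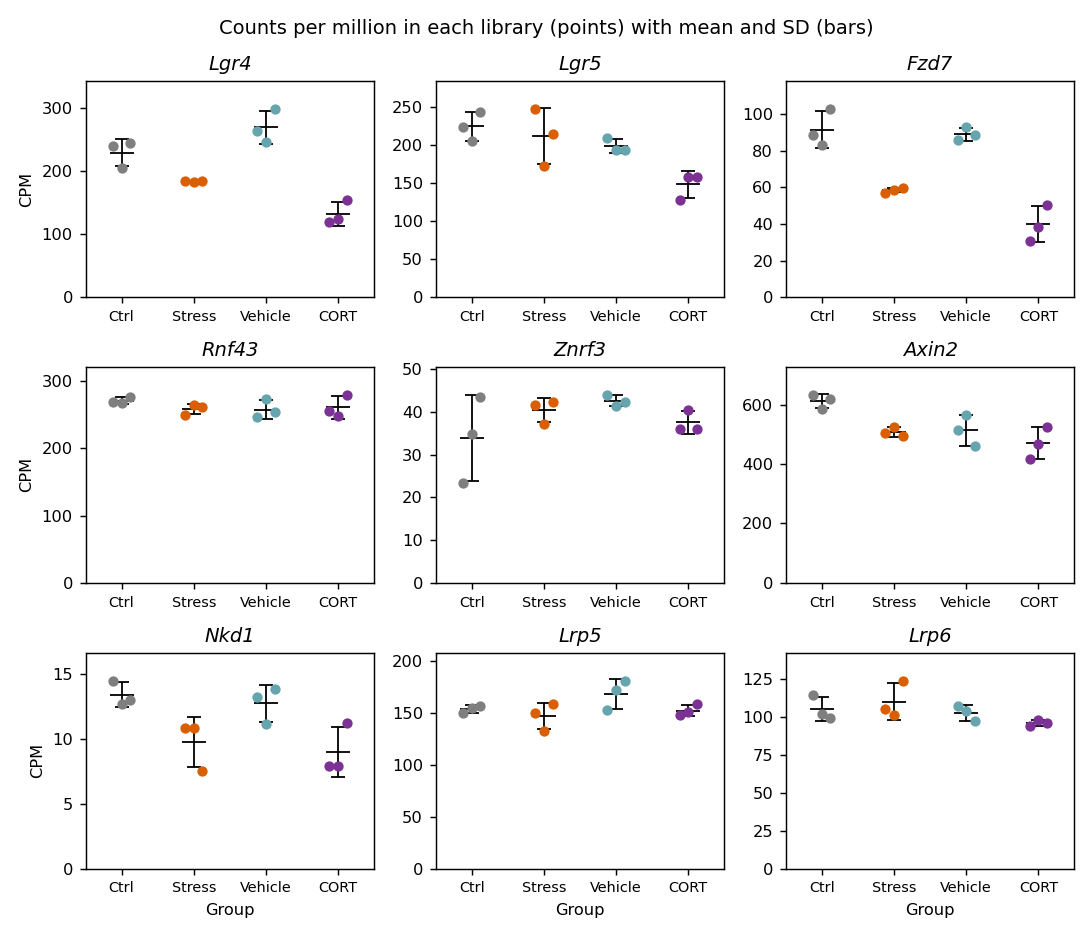
CPM, with TMM scaling over 12 libraries, of 9 members in each library, by group, with the mean and SD over 3 libraries as bars. The axes start at 0, and Fzd7 and Lgr4 in the CORT libraries lie below all libraries of the other 3 groups, while Rnf43 and Lrp6 lie at similar heights in every group.

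The 3 members that fell in CORT vs. Vehicle stand against a background of 4.5% of the 14656 genes tested that fell in this comparison. Of the 3, Fzd7 and Lgr4 fell by more than 2-fold, which 0.737% of the genes tested did. The members were chosen with earlier results of these data known, so these shares are for description only. The median log2 fold change over the 9 members tested was -0.19 in CORT vs. Vehicle and -0.084 in Stress vs. Ctrl, beside 0.014 and -0.0028 over all genes tested. By library values alone, 4 members (Lgr4, Lgr5, Znrf3 and Fzd7) had every CORT library below every Vehicle library, which held for 14.4% of the genes tested. For Stress vs. Ctrl, 5 members (Lgr4, Rnf43, Axin2, Nkd1 and Fzd7) had every Stress library below every Ctrl library, which held for 10.2% of the genes tested. None of the 9 members tested had all treated libraries above all its controls in either comparison.

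**Figure D2:**
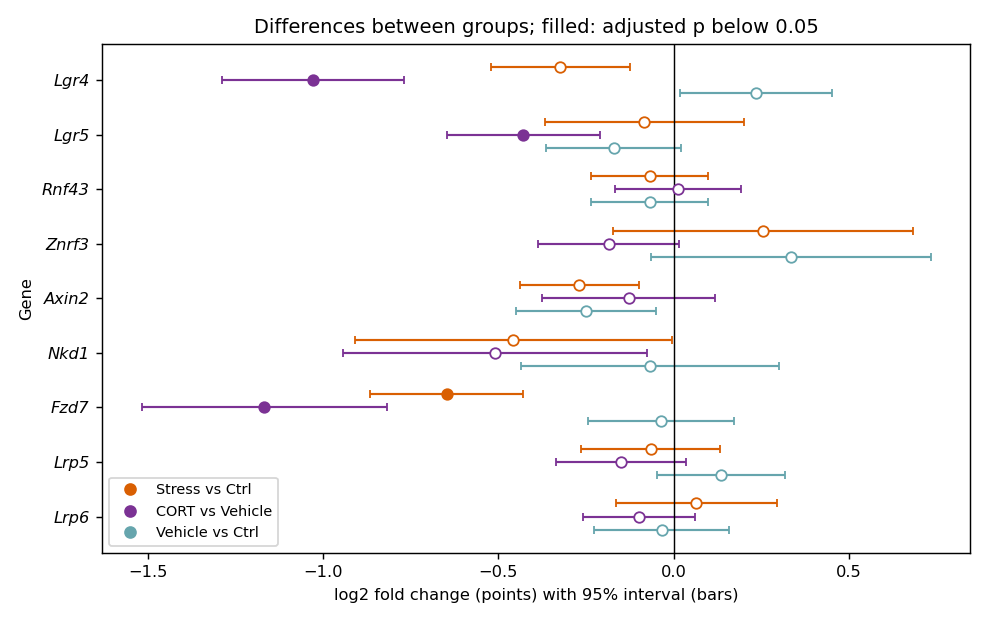
log2 fold change of 9 members in Stress vs. Ctrl, CORT vs. Vehicle and Vehicle vs. Ctrl (points, filled where the adjusted p is below 0.05) with 95% intervals from edgeR's fit (bars). Only Fzd7 is filled in Stress vs. Ctrl, Fzd7, Lgr4 and Lgr5 are filled in CORT vs. Vehicle, and no member is filled in Vehicle vs. Ctrl.

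Markers of some other cell types differed in each comparison. In the Stress libraries, 5 of 6 enterocyte markers rose, beside 1.3% of the 13722 genes tested. The 6 genes summed to 830, 322 and 1685 CPM in Stress 1+2, 3 and 4+5+6, against 179 to 202 CPM in Ctrl. Of the goblet markers 2 of 6 rose, Zg16 and Clca1, and the 6 genes summed to 505 to 1458 CPM against 491 to 614 CPM in Ctrl. Of the Paneth markers 1 of 6 rose, Mmp7, and the 6 genes summed to 153 to 239.5 CPM against 119 to 156 CPM in Ctrl. None of the 6 enteroendocrine and 2 tuft markers tested passed. The part of marker RNA from other cells in the Stress results was not tested. In the CORT libraries, 4 of 6 Paneth markers fell, beside 4.5% of the 14656 genes tested. Those 6 genes summed to 93.4 to 106 CPM against 173 to 200 CPM in Vehicle. Of the enterocyte markers 1 of 6 rose, Fabp2, beside 3.64% of all genes tested. The 6 enterocyte genes summed to 125 to 191 CPM against 137 to 190 CPM. Among stromal and endothelial markers only Pecam1 could be tested, and it rose. Those 6 genes stayed low, at 1.46 to 3.24 CPM against 0.389 to 0.951 CPM in Vehicle. None of the 6 goblet, 6 enteroendocrine and 2 tuft markers tested passed. The part of marker RNA from other cells in the CORT results was not tested.

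Rnf43, the more abundant of the 2 ubiquitin ligases, differed little between groups. It measured 268, 267 and 276 CPM in the Ctrl libraries and 249, 263 and 261 CPM in the Stress libraries. It measured 246, 272 and 253 CPM in the Vehicle libraries and 255, 248 and 279 CPM in the CORT libraries. The CORT and Vehicle libraries overlapped, and the 95% interval of the CORT log2 fold change, -0.17 to 0.19, allowed a fall to 0.892-fold or a rise to 1.14-fold. The Stress libraries lay just below the Ctrl libraries, with an interval of -0.23 to 0.098 and an adjusted p of 0.742 in edgeR's quasi-likelihood test.

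Znrf3, its paralog, measured 43.9, 41.4 and 42.3 CPM in the Vehicle libraries and 36.0, 40.5 and 36.0 CPM in the CORT libraries. The groups did not overlap, but the log2 fold change of -0.19 (95% interval -0.39 to 0.015) had an adjusted p of 0.249 in edgeR's quasi-likelihood test. In the Ctrl libraries Znrf3 ranged from 23.5 CPM in Ctrl 1 to 43.4 CPM in Ctrl 3. Its level per length was far less scattered there, at 5.65, 5.25 and 6.56 FPKM (fragments scaled to transcript length and library size) in Ctrl 1, 2 and 3. The log2 fold change of Znrf3 in Stress vs. Ctrl was 0.26 from counts (95% interval -0.17 to 0.68, adjusted p = 0.602 in edgeR's quasi-likelihood test) and 0.050 without Ctrl 1.

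Axin2, the scaffold protein of the β-catenin destruction complex that Wnt signalling induces, measured 632, 585 and 619 CPM in the Ctrl libraries. It measured 504, 526 and 493 CPM in the Stress libraries, all below Ctrl. The log2 fold change was -0.27 (SE 0.076, 95% interval -0.44 to -0.099), with an adjusted p of 0.121 in edgeR's quasi-likelihood test, 0.0331 without Stress 3, and 0.0168 in DESeq2. In the Vehicle libraries it measured 516, 564 and 461 CPM, and in the CORT libraries 419, 469 and 525 CPM. These 2 groups overlapped, with a log2 fold change of -0.13 (95% interval -0.38 to 0.12). Vehicle also lay below Ctrl for Axin2, with a log2 fold change of -0.25 and an adjusted p of 0.307. An antisense transcript, Gm11670, shares 209 exonic bases with Axin2 and had a mean of 19.3 counts.

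Nkd1, which binds Dishevelled and dampens Wnt signalling, was low. It measured 14.5, 12.7 and 13.1 CPM in the Ctrl libraries and 10.9, 10.9 and 7.56 CPM in the Stress libraries. It measured 13.3, 11.2 and 13.8 CPM in the Vehicle libraries and 7.89, 7.89 and 11.3 CPM in the CORT libraries. The Stress libraries were all below Ctrl, while CORT 5 overlapped Vehicle 5. The log2 fold changes were -0.46 (95% interval -0.91 to -0.0042) after restraint and -0.51 (95% interval -0.94 to -0.077) after corticosterone, with adjusted p-values of 0.325 and 0.149 in edgeR's quasi-likelihood test. These wide intervals hold falls as large as that of Lgr5 in the CORT group.

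Notum, a secreted enzyme that inactivates Wnt ligands, had 0 counts in all 9 Ctrl, Stress and Vehicle libraries. It had 7, 13 and 8 counts in CORT 2, 4 and 5, of which only CORT 4 passed the floor of 12 counts. Expression at this level was not detectable in those 9 libraries, where 12 counts amount to 0.389 to 0.746 CPM against 0.105 to 0.275 CPM measured in CORT. Antisense transcripts share exonic bases with Notum, and strand use in the counting is not given in the sources used here, so these few counts cannot be tied to either strand.

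Lrp5 and Lrp6, the coreceptors, did not pass in either comparison. Lrp5 measured 150, 133 and 159 CPM in the Stress libraries against 149.9, 155 and 157 CPM in Ctrl, and 148, 151 and 159 CPM in the CORT libraries against 153, 172 and 181 CPM in Vehicle. Lrp6 measured 105, 101 and 124 CPM in the Stress libraries against 114, 102 and 99.3 CPM in Ctrl, and 94.1, 97.7 and 95.8 CPM in the CORT libraries against 107, 103 and 96.9 CPM in Vehicle. In CPM the groups overlapped for both genes in both comparisons. The 95% intervals for CORT vs. Vehicle were -0.34 to 0.035 for Lrp5 and -0.26 to 0.061 for Lrp6 on the log2 scale. In FPKM the groups did not overlap in this comparison. Lrp5 measured 25.7, 24.6 and 26.1 FPKM in CORT against 26.8, 31.4 and 31.5 FPKM in Vehicle, and Lrp6 11.2, 11.2 and 12.6 FPKM against 14.9, 15.0 and 13.3 FPKM. Neither gene passed on that scale, where limma gave Lrp6 an adjusted p of 0.0930 or higher.

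Compared per length, Axin2 was the most abundant member, with a mean of 129 FPKM over the 12 libraries, above 99.0% of all genes in the table. Rnf43 followed at 62.5 FPKM, then Lgr5 at 37.9, Lgr4 at 36.4, Lrp5 at 27.0, Fzd7 at 13.8, Lrp6 at 13.3, Znrf3 at 5.98 and Nkd1 at 2.32 FPKM. In the Ctrl libraries every pair of neighbours in this order was separated except Lgr5 and Lgr4, at 43.8 and 41.2 FPKM, whose ranges overlapped. The place of Lgr5 holds for cells sorted on its locus that carry the knock-in. The order itself differed between groups. Fzd7 was above Lrp6 in Ctrl, at 18.2 ± 2.27 against 14.0 FPKM, and below it in CORT, at 7.56 ± 1.78 against 11.7 FPKM (SD, n = 3). Lgr4 was above Lgr5 in Vehicle, at 48.8 against 38.9 FPKM, and in CORT it was below both Lgr5 and Lrp5, at 22.9 against 27.7 and 25.5 FPKM, where the ranges of neighbours overlapped.

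**Figure D3:**
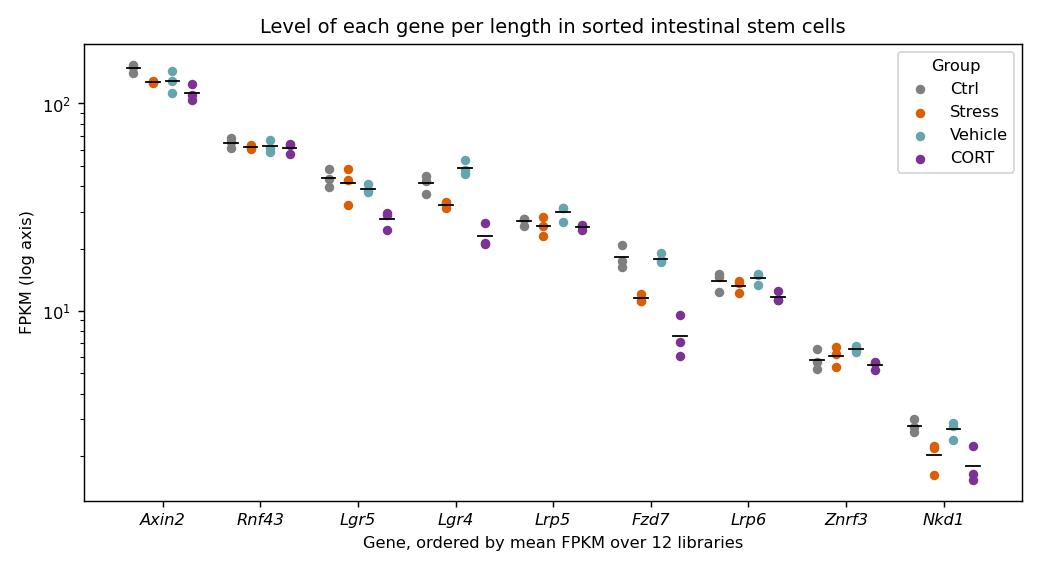
FPKM of 9 members on a log axis, ordered by their mean over 12 libraries, with 1 point per library and a line at each group's mean. Axin2 is highest at 129 FPKM and Nkd1 lowest at 2.32 FPKM. Notum is left out because it was listed at 0 in 9 libraries.

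Since Lgr4 and Lgr5 act on Rnf43 and Znrf3, the members were also summed by role within each library. This step was chosen after the values had been seen. Lgr5 enters these sums under the limits of the sort and the knock-in given above. Lgr4 plus Lgr5 measured 88.6, 84.1 and 90.5 FPKM in Vehicle 3, 5 and 6 and 45.7, 50.0 and 56.1 FPKM in CORT 2, 4 and 5. Rnf43 plus Znrf3 measured 67.8, 73.6 and 65.0 FPKM in Vehicle and 69.0, 62.7 and 68.6 FPKM in CORT. The receptor sums did not overlap, whereas the ligase sums did. The ratio of ligase to receptor RNA was 0.786 ± 0.0801 in Vehicle and 1.33 ± 0.158 in CORT (SD, n = 3), with a two-sided exact permutation p of 0.1, the smallest that 3 against 3 libraries allow. In Stress vs. Ctrl the ratio was 0.927 ± 0.111 against 0.834 ± 0.0294, with overlapping libraries and an exact permutation p of 0.3 (n = 3).

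The RNA ratio of the R-spondin receptors also differed. Cells were gated on the Lgr5 locus and carried the knock-in there, so the ratio describes these sorted cells only. The ratio of Lgr4 to Lgr5 FPKM was 1.17, 1.19 and 1.42 in Vehicle 3, 5 and 6 and 0.865, 0.725 and 0.899 in CORT 2, 4 and 5, without overlap (two-sided exact permutation p = 0.1, n = 3). In Ctrl 1, 2 and 3 it was 0.971, 0.924 and 0.929, so Vehicle lay above Ctrl as well, with the same p. In Stress 1+2, 3 and 4+5+6 it was 0.674, 0.959 and 0.785, overlapping Ctrl. The ratio of Lrp5 to Lrp6 overlapped between groups in all 3 comparisons. Of the 7 ratios and sums computed in 3 comparisons each, none could pass an adjustment, since no p can fall below 0.1.

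**Figure D4:**
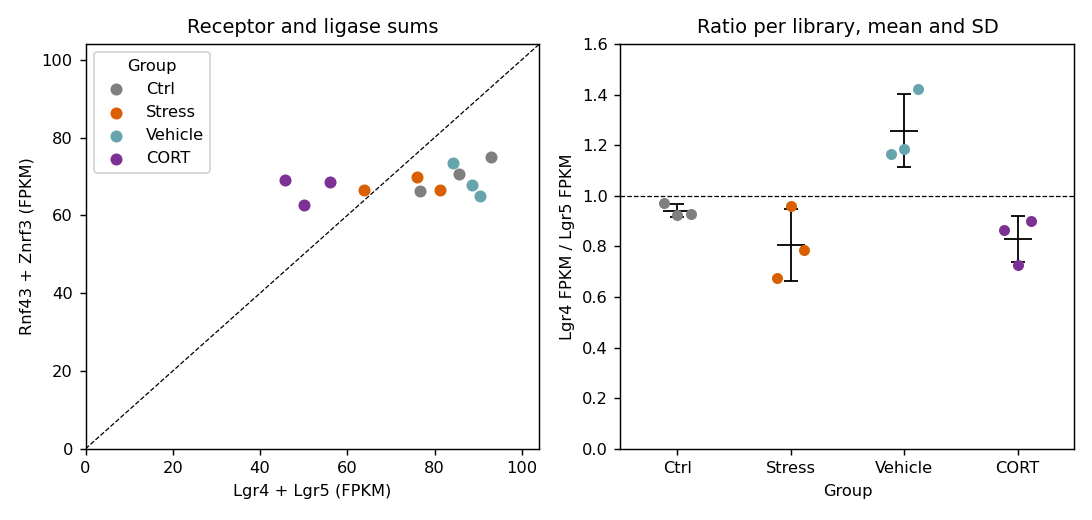
Left, summed FPKM of Rnf43 and Znrf3 against that of Lgr4 and Lgr5 in each of the 12 libraries, with a dashed line at equal values. Right, the ratio of Lgr4 to Lgr5 FPKM per library with the mean and SD of each group. In the plot of sums the 3 CORT libraries lie left of the other 9, at 45.7 to 56.1 FPKM of receptor RNA.

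The size of the response was compared between treatments by the difference of the 2 fold changes, (Stress vs. Ctrl) minus (CORT vs. Vehicle), in a fit over 12 libraries. For Lgr4 this difference was 0.70 on the log2 scale (SE 0.150, 95% interval 0.38 to 1.02), a larger fall after corticosterone, with an adjusted p of 0.0654 in edgeR's quasi-likelihood test. DESeq2 gave an adjusted p of 0.00122, and edgeR's value was 0.0468 without Stress 3 and 0.0329 without CORT 5. The adjusted p stayed above the threshold in 17 of 22 alternatives and reached 0.167 with a library left out. For Fzd7 the difference was 0.52 (95% interval 0.093 to 0.94, adjusted p = 0.286), and for Lgr5 0.34 (95% interval -0.029 to 0.71, adjusted p = 0.455). Thus 0 of 9 members passed in edgeR and 1 passed in DESeq2, while 0.388% of the 14415 genes tested passed in edgeR. The share of all genes that passed in DESeq2 is not given here.

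The control groups were compared in Vehicle vs. Ctrl, which shares its libraries with the comparisons above. These groups differ by injection and by the withdrawal of food and water that is described for Ctrl mice, which cannot be told apart. No member passed in edgeR's quasi-likelihood test or in DESeq2, where 0.799% of the 13642 genes tested passed in edgeR. Axin2 and Lgr4 had unadjusted p-values of 0.0190 and 0.0354 in edgeR's quasi-likelihood test. The share of all genes with an unadjusted p below 0.05 was not counted. Lgr4 was higher in every Vehicle library than in any Ctrl library, with a log2 fold change of 0.24 (95% interval 0.019 to 0.45, adjusted p = 0.395). Fzd7 was at -0.036 (95% interval -0.24 to 0.17).

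Among the 9 Frizzled genes looked at, 5 had a mean of at least 1 FPKM. Fzd5 was the most abundant, at 19.7 ± 1.22 FPKM in Ctrl and 21.6 ± 1.39 FPKM in CORT (SD, n = 3), and its libraries overlapped in both comparisons. Fzd2 measured 25.0, 27.8 and 21.5 CPM in Vehicle 3, 5 and 6 and 13.6, 12.9 and 13.6 CPM in CORT 2, 4 and 5, without overlap. It fell in CORT vs. Vehicle, with a log2 fold change of -0.89 (SE 0.136) and an adjusted p of 0.00508 in edgeR's quasi-likelihood test. In Stress vs. Ctrl the log2 fold change of Fzd2 was -0.083 (95% interval -0.41 to 0.25). Fzd7 made up 32.8% ± 1.58 of the summed FPKM of these 9 genes in Vehicle and 18.2% ± 3.11 in CORT. Its share was 34.9% ± 2.82 in Ctrl and 23.8% ± 2.40 in Stress (SD, n = 3), with an exact permutation p of 0.1 in both comparisons. Fzd8 was not among the 9, and these shares use the same Fzd7 libraries as above.

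**Figure D5:**
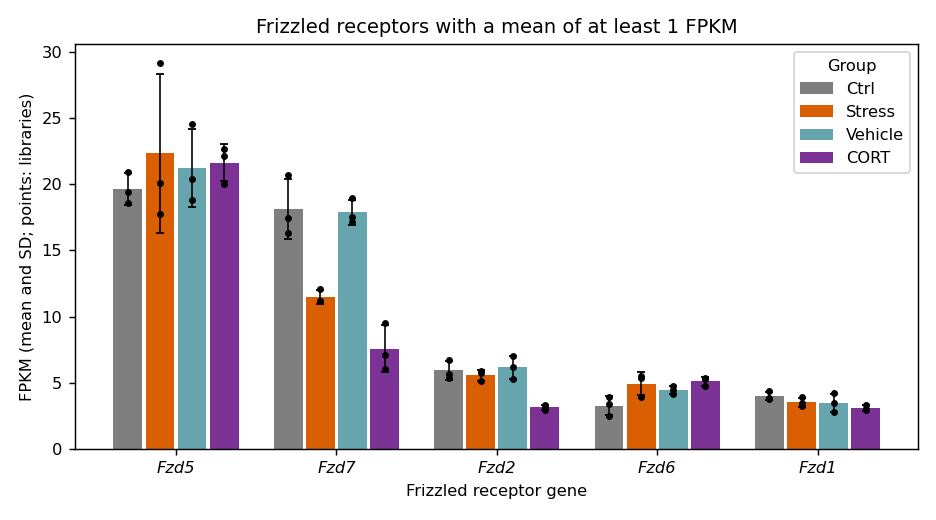
Mean FPKM of the 5 Frizzled genes with a mean of at least 1 FPKM, by group, with the SD over 3 libraries as error bars and the libraries as points. Fzd7 is lower in the Stress and CORT bars than in those of their controls, at 11.5 and 7.56 FPKM against 18.2 and 17.9 FPKM, and Fzd5 is not.

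The R-spondins, ligands of Lgr4 and Lgr5, were at or near 0 in the sorted cells. Rspo1, Rspo2 and Rspo3 had 0 counts in all 12 libraries, and Rspo4 had 4 counts in CORT 4 alone, below the floor. Lgr6, the third R-spondin receptor, had at most 5 counts. Of the Wnt ligands, Wnt5b and Wnt3 had the highest means. Wnt3, made by Paneth cells in the crypt, measured 4.27, 5.32 and 5.06 CPM in Ctrl and 2.92, 2.31 and 2.89 CPM in Stress, without overlap (adjusted p = 0.228). Its CORT vs. Vehicle log2 fold change was -0.86 (SE 0.265), with an adjusted p of 0.0850 in edgeR's quasi-likelihood test. Wnt5b scattered from 1.04 to 5.56 CPM within the Ctrl group alone.

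A list of 95 other Wnt pathway genes, ligands, receptors, inhibitors, transducers and stem cell targets, was examined in the same fits. In Stress vs. Ctrl 60 could be tested, 3 fell and 0 rose, beside 0.59% and 1.3% of all genes tested, with a median log2 fold change of -0.11 beside -0.0028 over all genes. In CORT vs. Vehicle 63 could be tested, 8 fell and 3 rose, beside 4.5% and 3.64% of all genes tested, with a median of -0.11 beside 0.014 over all genes. The 3 that rose include Sfrp2, which had 0 counts in Vehicle and passed the filter through the CORT libraries alone, so its direction was set in advance. In Vehicle vs. Ctrl 1 of 59 passed, the corepressor Tle3, which fell by 0.62 on the log2 scale (adjusted p = 0.0214). In the difference between treatments 0 of 62 passed in edgeR, beside 0.388% of the 14415 genes tested.

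Of the list's stem cell targets, Ascl2, a transcription factor of ISC identity, fell in both comparisons. It measured 148, 138 and 147 CPM in Ctrl and 53.8, 69.0 and 61.8 CPM in Stress, a log2 fold change of -1.23 (SE 0.103, adjusted p = 0.000336 in edgeR's quasi-likelihood test). It measured 149, 171 and 162 CPM in Vehicle and 59.3, 75.8 and 107.5 CPM in CORT, a log2 fold change of -0.998 (SE 0.183, adjusted p = 0.0114), which was 0.0588 without CORT 4. The libraries did not overlap in either comparison. Myc, a growth regulator, fell in Stress vs. Ctrl by 0.47 on the log2 scale (adjusted p = 0.0332), but the call was lost when any library but Stress 3 was left out (adjusted p up to 0.153). Cdca7, Ephb2 and Smoc2 fell in CORT vs. Vehicle, by 0.58, 0.31 and 0.31 on the log2 scale. Cdca7 stayed past the threshold whichever library was left out, whereas Ephb2 lost the call without any of 5 libraries, all but CORT 2, and Smoc2 without any of the 6 (adjusted p up to 0.137 and 0.161).

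Of the other inhibitors, Sfrp5, a secreted Frizzled-like protein that traps Wnt ligands, fell in both comparisons. It measured 112, 104 and 135 CPM in Ctrl and 76.1, 64.8 and 53.4 CPM in Stress, a log2 fold change of -0.85 (SE 0.141, adjusted p = 0.0180 in edgeR's quasi-likelihood test). The adjusted p was 0.0836 without Ctrl 1 and 0.0846 without Ctrl 3. In CORT vs. Vehicle its log2 fold change was -0.80 (adjusted p = 0.0141), with adjusted p-values of 0.0548, 0.0637 and 0.0522 without Vehicle 5, CORT 4 and CORT 5. Axin1, the constitutive paralog of Axin2, fell by 0.31 on the log2 scale in CORT vs. Vehicle (adjusted p = 0.0367). This call was lost without any of the 6 libraries (adjusted p of 0.0503 to 0.150). Sfrp2 had 23, 67 and 33 counts in CORT 2, 4 and 5 and 0 counts in the Vehicle and Ctrl libraries. It had 4, 4 and 9 counts in Stress 1+2, 3 and 4+5+6, below the floor of 12. It is 1 of the 3 list genes counted as higher in CORT vs. Vehicle and passed the filter on low counts through the CORT libraries alone. CORT 2, at 0.344 CPM, lay below what 12 counts amount to in the Vehicle libraries, 0.389 to 0.713 CPM, so no fold is given.

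The nuclear effectors included the clearest rise of the list. Tle1, a Groucho-type corepressor that holds TCF targets off, measured 70.0, 66.8 and 67.1 CPM in Vehicle 3, 5 and 6 and 137, 132 and 134 CPM in CORT 2, 4 and 5. The groups were far apart, with a log2 fold change of 0.98 (SE 0.067, adjusted p = 0.000115 in edgeR's quasi-likelihood test). In Stress vs. Ctrl the Tle1 libraries did not overlap either, at 120, 137 and 99.2 CPM against 96.1, 75.1 and 81.2 CPM, and the adjusted p was 0.101. The β-catenin coactivators Bcl9 and Bcl9l went opposite ways in CORT vs. Vehicle, by -0.56 and 0.45 on the log2 scale (adjusted p = 0.0169 and 0.0484). Bcl9 lost the call without CORT 2 (0.0543) or CORT 4 (0.0805), and Bcl9l without any of 5 libraries, all but CORT 5 (adjusted p up to 0.179).

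As a description of likeness, log2 CPM values over the 12 libraries were correlated across 9557 genes with a mean of at least 10 CPM. The libraries share treatments and depth, so groups that differ as a whole set these values. The genes most like Lgr5 were Ugt2b34 (Pearson r = 0.94), Klf4 (0.91), Camta2 (0.91), Abcb1a (0.91) and Smtn (0.90). The genes most like Axin2 were Zfp36l1 (0.92), Zmat3 (0.89), Fbrs (0.89), Sesn2 (0.87) and Ldb1 (0.87). For Fzd7 and Lgr4, looked up after their values had been seen, Sema7a (0.98) and Trip10 (0.98) were most alike.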

How the data were processed

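The authors aligned paired reads to mm10 and assembled counts. The submitters' processing notes name HISAT2 2.2.1 and StringTie 2.2.1, whereas the study's methods name another HISAT2 release and featureCounts. The values scaled with coverage. Estimated counts of each gene, derived from coverage, fill the deposited table, and the deposited abundance files hold FPKM and coverage per gene for each library. Coverage served only to check the scale of the counts, and their precision beyond read sampling is limited because 1 read pair gives up to 4 counts.

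Counts were rounded, filtered with filterByExpr, scaled by TMM and tested with edgeR 4.0.16 (quasi-likelihood, Benjamini-Hochberg adjustment over all genes tested, threshold 0.05), on the 6 libraries of each comparison, or 12 for the difference between treatments. Intervals are 95% from the fit. Ratios were compared by exact permutation in scipy 1.17.1. R 4.3.3, DESeq2 1.42.0 and limma 3.58.1 served the alternatives: other tools, scalings, filters, FPKM with a pseudocount, thinned counts, and each library left out. The scripts were tested on simulated counts. Libraries of a group differed beyond sampling noise (chi-square per gene 9.20 to 94.1) and none was a duplicate.

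The 10 members, the 95 pathway genes and the cell type markers were chosen with earlier results of these data known, and the study displayed Lgr5 and Axin2 from these libraries. All members are described. Pathway genes are named where their adjusted p was below 0.05 in Stress vs. Ctrl, CORT vs. Vehicle or the difference between treatments, along with the most abundant ligands, the genes overlapping a member, and the 5 genes most like Lgr5 and Axin2. Other Frizzled and R-spondin genes and Tle3 were added after their values were seen.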

Additional observations from a re-analysis of the deposited data

How the results depend on the processing

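Of 639 combinations of a member and an alternative, 594 kept the direction and the side of the threshold. The number of members that fell in Stress vs. Ctrl was 1. It was 3 in DESeq2 and 0 with no filter and with limma on log2(FPKM + 1) or log2(FPKM + 0.1). The shares of all genes called under these alternatives are not given here, so these counts have no background beside them. With each library left out it was 0 to 2. Another alternative dropped Stress 1+2 and Stress 4+5+6, the 2 with the most enterocyte marker RNA. This leaves 1 Stress library assumed to vary like the Ctrl libraries, so only effect sizes are given. The log2 fold change was -0.64 for Fzd7 and -0.37 for Lgr5, and neither is counted as a call. That alternative and thinning were chosen after seeing the data. In CORT vs. Vehicle the number of members that fell was 3, and 2 with any 1 library left out. In the difference between treatments, 1 member (Lgr4) passed instead of 0 in DESeq2, with at least 10 counts in every library and with counts divided by 4, and 0 to 1 passed with each library left out. For Fzd7 in Stress vs. Ctrl the adjusted p was 0.0515 and 0.0519 with limma on FPKM.
Reversals occurred only where no call was made. In Stress vs. Ctrl the log2 fold change of Lrp6 was -0.072 and -0.077 with limma on FPKM + 1 and FPKM + 0.1 and -0.051 without Stress 1+2 and Stress 4+5+6. Leaving out a library gave ranges of -0.21 to 0.044 for Lgr5, -0.12 to 0.0029 for Lrp5 and -0.026 to 0.13 for Lrp6. In CORT vs. Vehicle Rnf43 was -0.024 with library size only, -0.021 and -0.022 with limma on FPKM + 1 and FPKM + 0.1, and -0.037 to 0.057 with a library left out. In Vehicle vs. Ctrl Lrp6 was 0.042 and 0.044 with limma on FPKM, and leaving out a library gave -0.13 to 0.019 for Nkd1, -0.098 to 0.055 for Fzd7 and -0.074 to 0.033 for Lrp6. In the difference between treatments Nkd1 was -0.011 with thinned counts and -0.039 to 0.23 with a library left out, and Lrp5 was -0.065 without Stress 1+2 and Stress 4+5+6. The cause of these changes was not tested. No paired analysis was possible because at most 1 number names a single library in both groups of a comparison, joined numbers are read as pools, and no source ties equal numbers to a shared mouse or day. Depth limits Notum and the R-spondins, whose counts were at or near the floor.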
